A study of Arabidopsis thaliana with 12 samples.

Results

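The glutathione transferases of Arabidopsis thaliana were followed in roots that had received the cytokinin trans-zeatin or its solvent, DMSO. Members were the probe sets of the Affymetrix ATH1 array that the platform annotation gives to a single gene whose symbol, with or without a leading At, begins with GSTU, GSTF, GSTZ, GSTT or GSTL and a number. This gave 14 of the 13356 genes with a probe set of their own, each with 1 probe set, so no choice between probe sets arose. One of them is spelled ATGSTF13 in the annotation and was taken as a member. The tau class (GSTU) had 11 members: GSTU15, GSTU16, GSTU18, GSTU20, GSTU21, GSTU22, GSTU23, GSTU25, GSTU26, GSTU27 and GSTU28. The other classes had 3, namely GSTF4 and ATGSTF13 of the phi class and GSTL3 of the lambda class. The RefSeq gene table (assembly TAIR10.1) names 48 genes by the same rule, 27 of them in the tau class. The genes of the zeta and theta classes, and the remaining tau, phi and lambda genes, had no single-gene probe set entry in the annotation used and are not analysed here.

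The 12 arrays form 4 groups of 3. Wild-type roots were of the ecotype Col-0 (stock N1092) and were treated with DMSO or with trans-zeatin. Mutant roots carried arr10 and arr12 mutations together, from the insertion lines SALK_098604 and SALK_054752 (stocks N598604 and N554752), and were treated in the same pair of ways. ARR10 and ARR12 encode type-B response regulators, the transcription factors at the end of the cytokinin phosphorelay. Neither had a probe set entry in the annotation used, so the mutant label was not checked against their transcripts. All plants were 2 weeks old seedlings grown on vertical agar plates. The labels give no ecotype for the mutant, no concentration of trans-zeatin and no length of treatment, and they do not say whether replicates came from separate plants, so a p-value here speaks of array-to-array spread, which may be technical. The tissue label reads roots, while the extraction protocol speaks of seedlings.

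Glutathione transferases join the tripeptide glutathione to reactive, electrophilic compounds, which are then moved to the vacuole or broken down further. The tau and phi classes are the large plant classes, and many of their genes are known to respond to herbicides, oxidative stress and hormones. Lambda enzymes carry a cysteine in the active site and act as thiol transferases rather than conjugating enzymes. Several plant members also bind small molecules without turning them over.

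Median signal per array was 39.3 to 41.6. Correlations of log2 signal between arrays of a group were 0.987 to 0.993, and no pair held identical values. Of the root markers, PYK10 (a beta-glucosidase of root endoplasmic reticulum bodies) and the root hair expansins EXPA7 and EXPA18 had an entry, 3 of 10 listed. PYK10 signal lay between 3141 and 4214, and none of these markers was near 0. Of the markers of green tissue, 3 of 10 had an entry: RCA (rubisco activase), LHCB4.1 (a light-harvesting protein) and PRK (phosphoribulokinase). Their summed signal was 498.7 to 619 in wild-type DMSO roots, 502 to 529 in wild-type trans-zeatin roots, 361 to 380 in mutant DMSO roots and 371 to 396 in mutant trans-zeatin roots. Array signal comes from whole tissue, so fewer cells of a type and less RNA per cell cannot be told apart. Signals of different probe sets are not set against each other, since probes differ in brightness.

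Of the 14 genes, 11 lie on chromosome 1, and several sit side by side. GSTU23, GSTU22, GSTU21 and GSTU20 follow each other in that order with 0 protein-coding genes between neighbours. GSTU25 and GSTU26 are likewise adjacent, and 3 protein-coding genes stand between GSTU15 and GSTU16. GSTU27 and ATGSTF13 are on chromosome 3 and GSTL3 is on chromosome 5. Probes for such closely related neighbours can share sequence, and cross-hybridisation between them was not tested.

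The first question was how the tau class responded to trans-zeatin in wild type and in the mutant. GSTU23 and GSTU27 fell in both genotypes, to between 55.0% and 69.6% of the DMSO mean. GSTU26 was the one tau member whose trans-zeatin arrays all lay above its DMSO arrays, again in both genotypes, but it did not pass the test in either genotype alone. GSTU16, GSTU20 and GSTU22 had lower signal under trans-zeatin in wild type without passing. The remaining tau members had overlapping groups. The test was limma on log2(signal + 6.65), with Benjamini-Hochberg adjustment over all 22746 probe sets and a threshold of 0.05; log2 changes are on that scale and understate changes of low signals.

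GSTU23 (AT1G78320) had signal of 72.9, 79.5 and 68.5 on the wild-type DMSO arrays and 47.1, 44.4 and 41.6 on the wild-type trans-zeatin arrays. In arr10 arr12 the values were 72.7, 79.7 and 75.6 under DMSO and 53.2, 55.4 and 50.1 under trans-zeatin. In each genotype every treated array lay below every DMSO array, and the DMSO arrays of both genotypes overlapped. The log2 change was -0.65 ± 0.09 (SE, n = 3 and 3) in wild type (limma adjusted p = 0.0012), and this call held in all 22 other settings tried. In the mutant it was -0.47 ± 0.09 (limma adjusted p = 0.043). That second call lay close to the threshold and was lost in 17 of 22 other settings, among them the removal of any 1 of the 12 arrays (adjusted p up to 0.19 over all settings). The log2 change itself stayed between -0.52 and -0.42.

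GSTU27 (AT3G43800) gave the largest fall of the family in both genotypes. Its signal was 397.5, 397.4 and 303 on wild-type DMSO arrays and 230, 169.6 and 205 on wild-type trans-zeatin arrays. In the mutant, signal was 281, 364 and 349 under DMSO and 189.7, 188 and 212 under trans-zeatin. The treated arrays of both genotypes thus overlapped each other and lay below every DMSO array. The log2 change was -0.84 ± 0.13 (SE, n = 3 and 3) in wild type (limma adjusted p = 0.0029; called in all 22 other settings) and -0.73 ± 0.13 in arr10 arr12 (limma adjusted p = 0.032). The mutant call was lost in 10 of 22 other settings (adjusted p up to 0.16). These were the fits without an intensity trend, with array weights and with only the 2 groups compared, and those without wild-type DMSO replicate 2, wild-type trans-zeatin replicate 3, mutant DMSO replicate 2 or 3, or any 1 mutant trans-zeatin array.

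**Figure D1:**
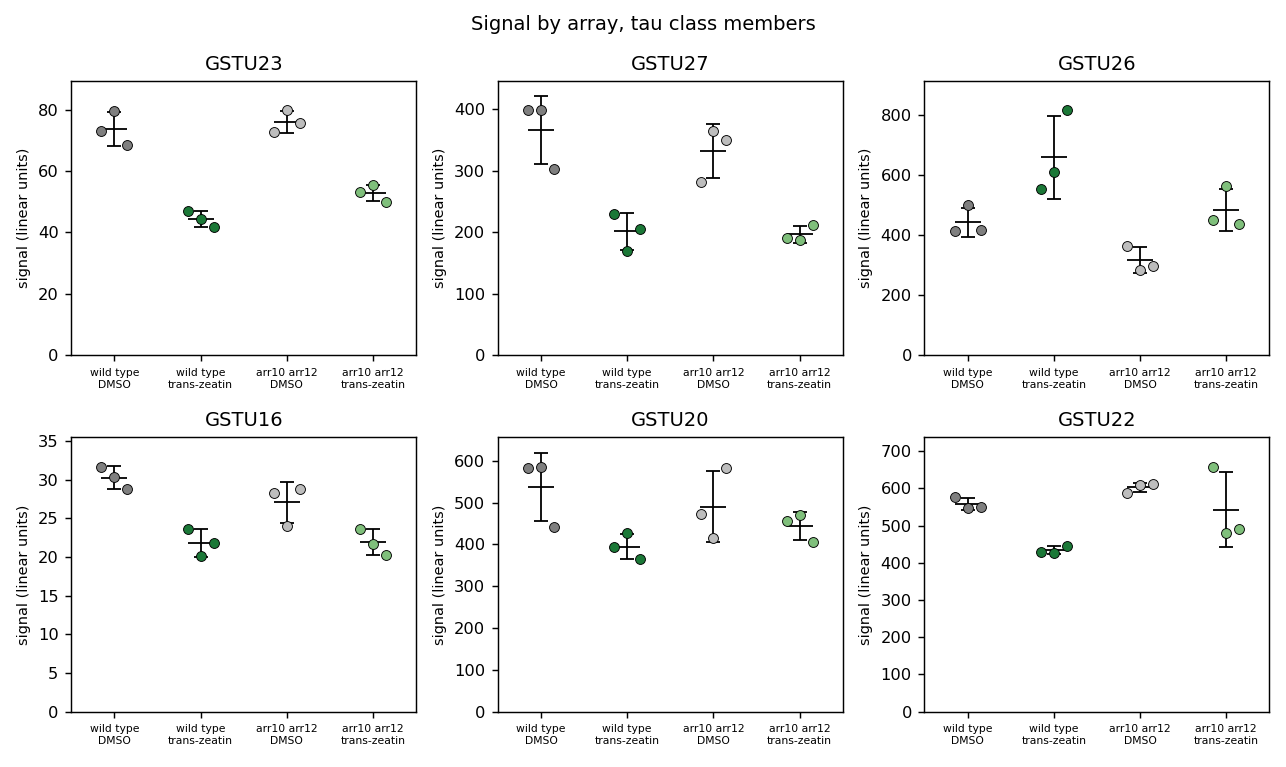
Signal (linear units, y axis from 0) of 6 tau class members on each of the 12 arrays, by genotype and treatment; points are single arrays, and bars give the mean ± SD of 3 arrays. GSTU23 and GSTU27 have treated arrays below all DMSO arrays of the same genotype in wild type and in arr10 arr12, and GSTU26 has them above.

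GSTU26 (AT1G17190), a gene known to be induced by chloroacetanilide herbicides, moved the other way. Wild-type signal was 414, 499 and 416 under DMSO and 552.5, 609.7 and 815 under trans-zeatin. Mutant signal was 365, 285 and 297 under DMSO and 451, 564 and 438 under trans-zeatin. The mean under trans-zeatin was 149% of that under DMSO in wild type and 153% in the mutant. Treated and DMSO arrays of the same genotype did not overlap. The log2 change of 0.55 ± 0.15 in wild type missed the threshold narrowly (limma adjusted p = 0.054). With only the probe sets above the 40th percentile of mean signal it passed, and adjusted p ranged from 0.024 to 0.18 over 22 settings, 5 of them past the threshold. In arr10 arr12 the change was 0.61 ± 0.15 (limma adjusted p = 0.11), past the threshold in 1 of 22 settings. GSTU25, its neighbour and an enzyme known to act on the explosive trinitrotoluene, showed no such rise: signal was 722 to 819 and 653 to 733 in wild type under DMSO and trans-zeatin, and 718 to 735 and 722 to 777 in the mutant. Its log2 changes were -0.14 in wild type and 0.03 in the mutant, and its array values spanned a ratio of 1.25 from lowest to highest. Whether the responses of both neighbours differ was not tested.

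Among the neighbours of GSTU23, GSTU22 had signal of 576, 547 and 551 under DMSO and 428.5, 426 and 447 under trans-zeatin in wild type, a gap well outside the spread within either group. Its log2 change was -0.36 ± 0.10 (SE; limma adjusted p = 0.069), past the threshold in 4 of 22 other settings, one of them the fit without mutant trans-zeatin replicate 1. In arr10 arr12 the DMSO values were 587, 609 and 611, and the trans-zeatin values 659, 480 and 491, so that replicate 1 lay above all DMSO arrays and replicates 2 and 3 below them (log2 change -0.16). GSTU20 (AT1G78370), which encodes a partner of the jasmonate-conjugating enzyme FIN219, had 582, 586 and 443 under DMSO and 393, 426 and 366 under trans-zeatin in wild type. The change of -0.43 ± 0.13 did not pass (limma adjusted p = 0.089); it passed with the filter on signal and without wild-type DMSO replicate 3, the lowest DMSO array (adjusted p = 0.030). In the mutant GSTU20 groups overlapped, with 474, 416 and 582 under DMSO and 456, 469 and 406 under trans-zeatin. GSTU21, which lies between GSTU22 and GSTU20, had overlapping groups in each genotype. Its signal was 22.9, 30.2 and 27.7, then 24.6, 24.9 and 20.9 in wild type, and 29.7, 26.2 and 39.4, then 44.7, 34.1 and 28.0 in the mutant. Its log2 changes were -0.15 and 0.13. Of these 4 neighbouring genes, GSTU23 passed in both genotypes, where 0.171% of all probe sets were called lower in both. GSTU20, GSTU21 and GSTU22 passed in neither, and whether the responses of these neighbours differ was not tested.

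GSTU16 had signal of 31.7, 30.3 and 28.7 in wild-type DMSO roots and 23.6, 20.1 and 21.8 after trans-zeatin. In the mutant the values were 28.3, 24.0 and 28.8 and then 23.6, 21.7 and 20.3. Treated arrays lay below DMSO arrays in both genotypes, in the mutant with the nearest arrays at 23.6 and 24.0, and neither change passed (-0.38, limma adjusted p = 0.083; -0.24, limma adjusted p = 0.56). GSTU18 (37.8 to 45.7 and 39.2 to 42.8 in wild type, 36.1 to 38.5 and 29.8 to 42.0 in the mutant) and GSTU28 (71.5 to 116 and 74.4 to 89.2, then 61.1 to 81.8 and 71.1 to 77.8) had overlapping groups. GSTU15 had signal of 0.21 to 3.81, below the offset of 6.65 on all 12 arrays, so its values carry no direction.

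**Figure D2:**
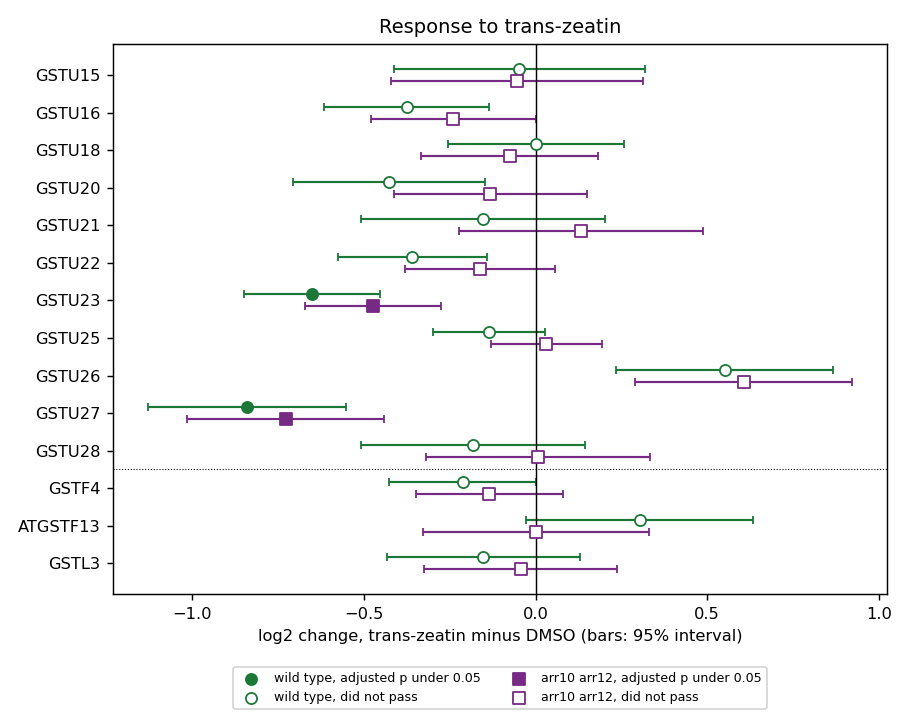
Log2 change with trans-zeatin (x axis, trans-zeatin minus DMSO) for the 14 glutathione transferases (y axis; tau class above the dotted line) in wild type and in arr10 arr12, with 95% intervals from limma. Filled symbols passed at an adjusted p under 0.05, which are GSTU23 and GSTU27 in both genotypes.

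In wild type, then, 2 of 11 tau members fell, 0 rose and 9 did not pass, against 4.01% of all probe sets called in this comparison (1.77% higher and 2.24% lower). At an unadjusted p under 0.05 the count was 6 of 11, against 17.5% of all probe sets. In arr10 arr12, 2 of 11 fell and 0 rose, against 0.448% of all probe sets called (0.251% higher and 0.198% lower), and 3 had an unadjusted p under 0.05, as did 8.9% of all probe sets. The same 2 genes, GSTU23 and GSTU27, passed in both, where 0.171% of all probe sets were called lower in both genotypes. Groups that did not overlap, lower under trans-zeatin, were found for 5 of 11 tau members in wild type (11.1% of all probe sets) and 3 of 11 in the mutant (6.47%), and GSTU16, GSTU23 and GSTU27 were lower without overlap in both (2.07%). GSTU26 was the 1 member higher without overlap in wild type (12.4%), in the mutant (6.27%) and in both (1.76%). The shares above include dim probe sets. With only the 13647 probe sets above the 40th percentile of mean signal, 1179 were called in wild type, 5 of them tau members. In the mutant 169 of the same 13647 were called, 3 of them tau members. GSTU15 lay below this filter and was not tested in these fits. The median log2 change of the tau class was -0.18 in wild type and -0.08 in the mutant, beside 0.01 and 0.00 over all probe sets. Of the root markers, EXPA7 fell with trans-zeatin in wild type (log2 change -0.67, limma adjusted p = 0.019, not past the threshold in 3 of 22 alternative fits). EXPA18 did not pass (-0.43, limma adjusted p = 0.081, past the threshold in 3 of 22 alternative fits), and neither did PYK10 (-0.08). The part of such changes in the results above was not tested.

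The second question was whether the response differed between genotypes, which the interaction tests. None of the 14 members passed, 0 of 14 had an unadjusted p under 0.05 (9.01% of all probe sets), and 4 of 22746 probe sets (0.0176%) passed at all. For GSTU23 the difference of responses, mutant minus wild type, was 0.18 with a 95% interval of -0.10 to 0.46. For GSTU27 it was 0.11 (-0.30 to 0.52), and for GSTU26 0.05 (-0.39 to 0.50). The estimates ran from ATGSTF13 at -0.30 (-0.77 to 0.16) to GSTU20 at 0.30 (-0.10 to 0.69). These intervals, with half-widths of 0.23 to 0.52, include 0 for all 14 members, and they do not show that the responses were alike.

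The third question was how arr10 arr12 differed from wild type in the level of these transcripts. No member passed under DMSO, where 1.85% of all probe sets were called, or under trans-zeatin, where 1.19% were. At an unadjusted p under 0.05 there were 3 of 14 under DMSO (16% of all probe sets) and 4 of 14 under trans-zeatin (11%). GSTU26 had a mutant mean of 71.3% of wild type under DMSO and 73.5% under trans-zeatin. Its log2 difference was -0.48 ± 0.15 under DMSO (limma adjusted p = 0.12), where the groups did not overlap, and -0.43 ± 0.15 under trans-zeatin (limma adjusted p = 0.25), where the highest mutant array, 564, exceeded the lowest wild-type array, 552.5. Without wild-type trans-zeatin replicate 3 the log2 difference under trans-zeatin was -0.27. GSTU22, GSTU21 and GSTU23 were higher in the mutant under trans-zeatin without overlap, 3 of 11 tau members against 7.77% of all probe sets. Their log2 differences of 0.31, 0.47 and 0.22 did not pass (limma adjusted p = 0.23, 0.26 and 0.38), and that of GSTU22 was 0.16 without mutant trans-zeatin replicate 1. Under DMSO, GSTU22 was the single tau member higher without overlap (12% of all probe sets) and GSTU26 the single one lower (9.86%). The green tissue markers were lower in the same mutant arrays. Under DMSO the log2 differences of RCA, PRK and LHCB4.1 were -0.55, -0.73 and -0.56 (limma adjusted p = 0.028, 0.024 and 0.0071). These calls were lost in 6, 3 and 1 of 22 other settings. Under trans-zeatin the differences of RCA, PRK and LHCB4.1 were -0.50, -0.66 and -0.34, without overlap (8.02% of all probe sets). RCA and PRK passed (limma adjusted p = 0.047 and 0.044), calls lost in 13 and 12 of 22 other settings. LHCB4.1 did not pass (limma adjusted p = 0.099). The root markers EXPA7, EXPA18 and PYK10 were also lower under DMSO without overlap (9.86% of all probe sets) and did not pass. Their differences were -0.55, -0.49 and -0.16 (limma adjusted p = 0.070, 0.066 and 0.53). Under trans-zeatin they were -0.08, -0.05 and 0.01. The part of these markers in the values above was not tested.

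**Figure D3:**
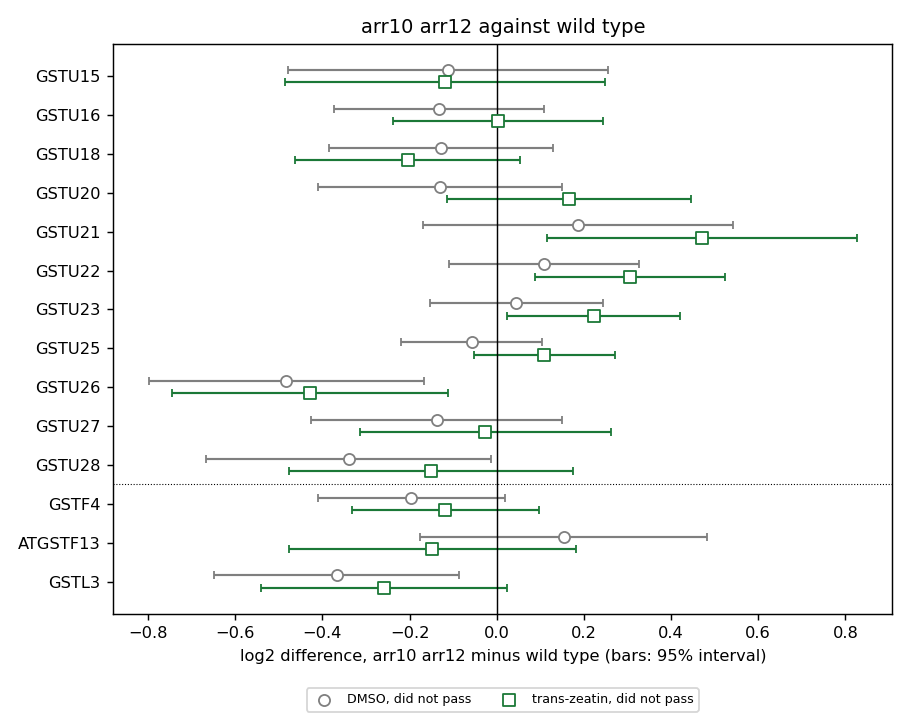
Log2 difference between arr10 arr12 and wild type (x axis, mutant minus wild type) for the 14 glutathione transferases (y axis; tau class above the dotted line) under DMSO and under trans-zeatin, with 95% intervals from limma. All symbols are open because no member passed at an adjusted p under 0.05; GSTU26 lies to the left under both treatments.

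Averages over both genotypes or both treatments use all 12 arrays and were added after the values were seen. In the trans-zeatin response averaged over genotypes, 4 of 11 tau members passed, 1 higher and 3 lower, against 4.5% of all probe sets (1.93% higher and 2.57% lower). GSTU27 fell by 0.78 on the log2 scale (± 0.09 SE; limma adjusted p = 2.6e-04) and GSTU23 by 0.56 (± 0.07; limma adjusted p = 2.1e-04). GSTU26 rose by 0.58 ± 0.10 (limma adjusted p = 0.0051), and these 3 calls held in all 21 other settings. The rise of GSTU26 thus passed with the arrays of both genotypes together where neither genotype alone reached the threshold. GSTU16 fell by 0.31 (limma adjusted p = 0.042), a call lost in 11 of 21 other settings, among them 10 of the 12 fits without 1 array (the exceptions were those without mutant DMSO replicate 2 and without mutant trans-zeatin replicate 1). GSTU22 (-0.26, limma adjusted p = 0.058) and GSTU20 (-0.28, limma adjusted p = 0.12) did not pass. In the genotype difference averaged over treatments 3.79% of all probe sets were called (2.4% lower), and GSTU26 was the 1 member called. It was lower in arr10 arr12 by a log2 difference of -0.46 ± 0.10 (limma adjusted p = 0.027). The call was lost in 6 of 21 other settings, the fits without wild-type DMSO replicate 2, wild-type trans-zeatin replicate 3, mutant DMSO replicate 2 or 3, or mutant trans-zeatin replicate 1 or 3 (adjusted p up to 0.079). The green tissue markers were lower in the same average, with RCA at -0.52, PRK at -0.69 and LHCB4.1 at -0.45. Each passed (limma adjusted p = 0.0021, 0.0019 and 0.0013), also in all 21 other settings. The root markers EXPA7 (-0.32), EXPA18 (-0.27) and PYK10 (-0.08) did not pass in this average. The part of these markers in the average was not tested.

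The 3 members outside the tau class did not pass in any comparison. GSTF4, a phi class gene, had signal of 109.6, 96.3 and 97.3 under DMSO and 80.8, 85.8 and 92.2 under trans-zeatin in wild type. In the mutant it had 83.5, 89.1 and 89.3 under DMSO and 91.2, 74.8 and 72.0 under trans-zeatin. The 3 wild-type DMSO arrays thus lay above all others, so that GSTF4 was the 1 of these 3 members lower without overlap under trans-zeatin in wild type (11.1% of all probe sets). The log2 changes with trans-zeatin were -0.21 (limma adjusted p = 0.29) and -0.13 (limma adjusted p = 0.79), and the genotype difference under DMSO was -0.20 (limma adjusted p = 0.36). ATGSTF13, also of the phi class, had 69.3, 67.4 and 94.0, then 107, 93.8 and 86.4 in wild type, and 89.3, 93.7 and 74.2, then 81.8, 71.4 and 106.5 in the mutant. Treated and DMSO arrays overlapped in both genotypes, with log2 changes of 0.30 in wild type and 0.00 in the mutant.

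GSTL3, of the lambda class, had signal of 263.5, 177 and 191 under DMSO and 185.5, 198 and 175.5 under trans-zeatin in wild type. In arr10 arr12 the values were 149, 166 and 164.5, then 165, 167 and 133.5. Every mutant array lay below every wild-type array, and wild-type DMSO replicate 1 stood above the rest. The log2 difference between genotypes was -0.37 ± 0.13 under DMSO (limma adjusted p = 0.18) and -0.26 ± 0.13 under trans-zeatin (limma adjusted p = 0.51), and averaged over treatments it was -0.31 (limma adjusted p = 0.087). Without the high wild-type DMSO array the difference under DMSO was -0.20, and without mutant trans-zeatin replicate 3 that under trans-zeatin was -0.16. The log2 change with trans-zeatin in wild type was -0.15, and 0.01 without the high DMSO array. Groups lower in the mutant without overlap were found for 2 of these 3 members under DMSO (9.86% of all probe sets) and 1 of 3 under trans-zeatin (8.02%).

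**Figure D4:**
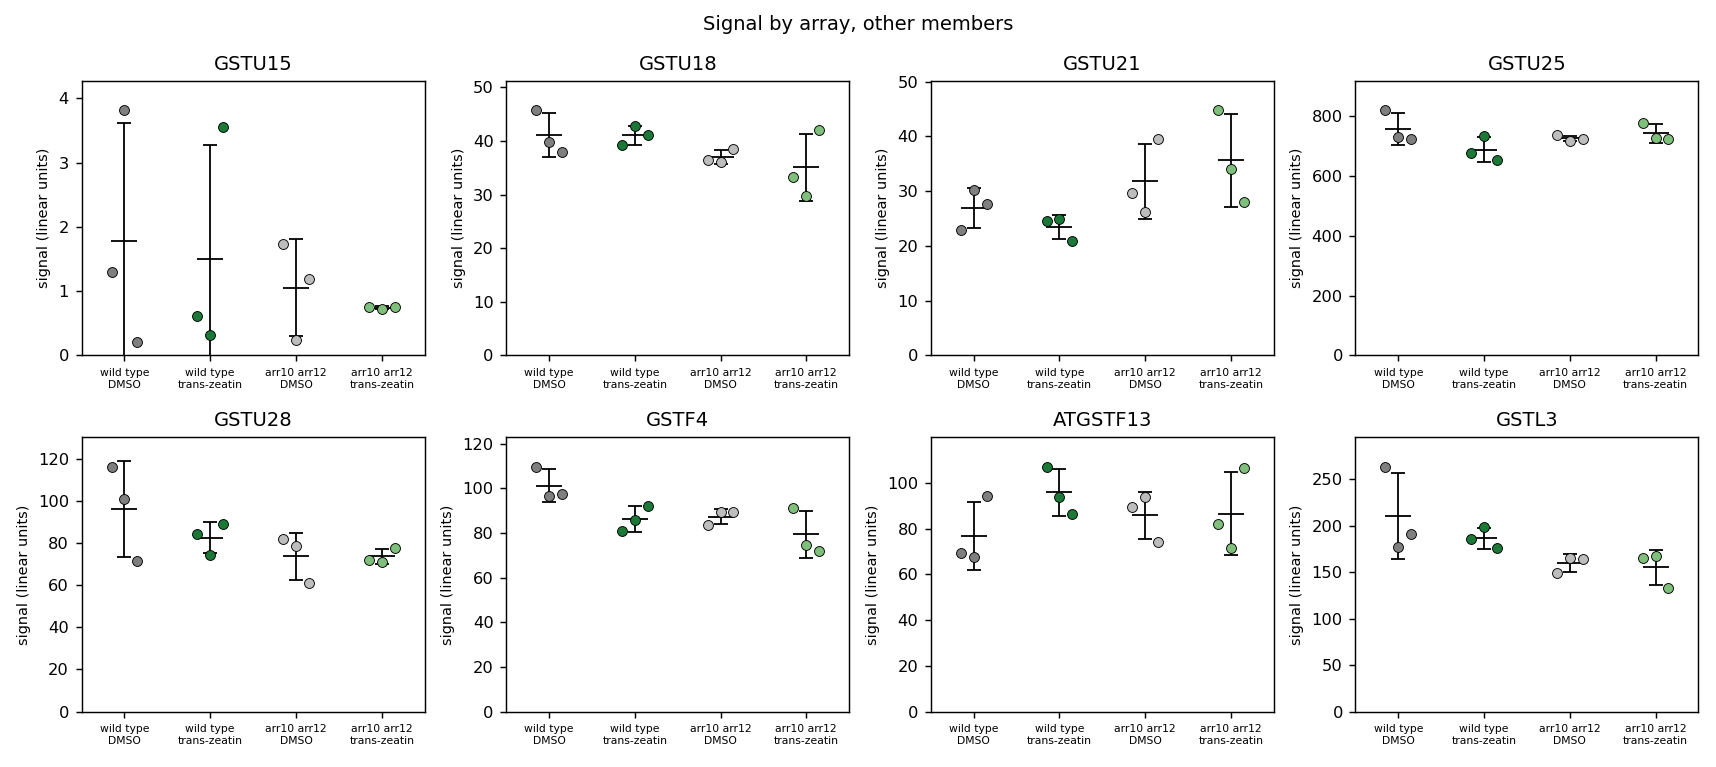
Signal (linear units, y axis from 0) on each of the 12 arrays for the other 5 tau class members and the 3 members of the phi and lambda classes; points are single arrays, and bars give the mean ± SD of 3 arrays, cut off at the axis where they would pass below 0. GSTL3 is lower on every mutant array than on every wild-type array, the groups of GSTU25 overlap within each genotype, and GSTU15 stays at 3.81 or below.

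Of 39 other genes listed for glutathione metabolism and the response to foreign compounds, 5 had a single-gene probe set. They were the glutathione reductases GR1 and GR2, which restore reduced glutathione, the microsomal transferase-like gene AT1G65820, and the glucosyltransferases UGT73B4 and UGT73B5. None of the 5 passed in the trans-zeatin response of either genotype, the interaction or the genotype difference under either treatment, with 1 of 5 at an unadjusted p under 0.05 in each but the interaction, which had 0, beside the shares of all probe sets given above for that threshold. The nearest was UGT73B4 in mutant DMSO roots, with signal of 313, 306 and 317 against 211, 267 and 261 in wild type (log2 difference 0.34, limma adjusted p = 0.070). Averaged over treatments, a comparison added later, UGT73B4 was higher in the mutant by 0.32 (limma adjusted p = 0.010), also in all 21 other settings. AT1G65820 had signal of 1374, 1228 and 1251 under DMSO and 1020, 1075 and 1145 under trans-zeatin in wild type, a log2 change of -0.25 that did not pass (limma adjusted p = 0.11). GR1 had 736, 715 and 651, then 654, 634 and 610.1, a change of -0.14 that did not pass (limma adjusted p = 0.42). In the mutant GR1 was lower under trans-zeatin without overlap (6.47% of all probe sets). That change of -0.23 did not pass either (limma adjusted p = 0.35). AT1G65820 was also lower without overlap with trans-zeatin in wild type (11.1%) and in the mutant under DMSO (9.86%). UGT73B4 was higher without overlap with trans-zeatin in the mutant (6.27%). It was also higher without overlap in the mutant against wild type under DMSO (12%) and under trans-zeatin (7.77%).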

How the data were processed

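The deposited values are array signal intensities on a linear scale; per the submitters' processing notes MAS5 and GCOS were used, with versions not given in the sources used here. The 2%-trimmed mean was 99.3 to 99.4 on every array, so values were used as deposited. The table held 22810 probe sets; 64 controls were left out. The annotation gave 13513 probe sets a single gene, 503 several genes, and left 8730 without an entry. The offset added before log2 was 6.65, the 25th percentile of all values. No filter on signal was set; 13 of the 14 members lay above the 40th percentile of mean signal used as an alternative (23.5), and GSTU15 lay below.

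limma (version 3.58.1, R version 4.3.3) estimated each group's mean from its own 3 arrays and the spread from the 12 arrays together. Variances were moderated along a trend in signal, and tests were 2-sided. A run on simulated arrays drew independent noise from the fitted spreads. It therefore cannot show how deviations shared between arrays affect the calls. The number of arrays limits precision. Every member could be named, with values on every array for those past the threshold or without overlap. The members, lists and tests were chosen with earlier results of these data known. Alternatives were a signal filter, offsets of 1 and 16, quantile normalization, median centring, other moderation, array weights, the replicate number as a block, fits of 2 groups and the removal of each array. Deviations from group means correlated over 0.1 in all 3 same-numbered pairs of the 2 trans-zeatin groups (0.136 to 0.156), which the labels do not explain. No other pair of groups passed 0.1 in all 3. Same-numbered correlations were still mostly positive elsewhere, as between wild-type DMSO and mutant trans-zeatin arrays (0.164, 0.055 and 0.199). The highest, 0.335, was between replicate 3 of wild-type trans-zeatin and replicate 3 of mutant DMSO. No scan date or other batch label was given. Chromosomes and gene order come from the RefSeq gene table (TAIR10.1).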

Additional observations from a re-analysis of the deposited data

How the results depend on the processing

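In wild type, the count of tau members past the threshold with trans-zeatin was 2; it was 5 with the signal filter and 4 with array weights, and 2 to 3 when 1 array was left out. In arr10 arr12 it was 2; it was 3 with the filter, 1 after quantile normalization or median centring, 0 without an intensity trend, with array weights or with only the groups compared, and 0 to 1 when 1 array was left out. No member passed in the interaction or in either genotype comparison in any setting (0 to 0 when 1 array was left out), and no member of the other classes in any of the 7 comparisons. With 1 array left out, 3 to 5 tau members passed in the averaged trans-zeatin response and 0 to 1 in the averaged genotype difference. No call of a member changed sign. No other probe set of a member gene was available as an alternative.

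Over all probe sets, the wild-type response had 911 calls, 1509 with array weights and 397 to 1037 with 1 array left out. The mutant response had 102 calls, 169 with the filter, 63 without a trend, 5 with only the groups compared and 17 to 91 with 1 array left out. The interaction had 4, 7 with array weights and 0 to 5 with 1 array left out. Under DMSO the genotypes differed in 420, in 682 with the filter, 275 without a trend, 772 with array weights, 125 with only the groups compared and 96 to 588 with 1 array left out. Under trans-zeatin these counts were 270, 112 with only the groups compared and 85 to 276 with 1 array left out. The averages had 1024 and 861 calls, 707 to 1111 and 521 to 905 with 1 array left out. The filter and the fits of fewer arrays change what is tested; the cause of the other changes was not tested.

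Groups share replicate numbers. Deviations from group means were compared over the probe sets above the 40th percentile of mean signal. They correlated over 0.1 in 9 of 18 same-numbered pairs of arrays from different groups (-0.07 to 0.34). Among differently numbered pairs, 4 of 36 did (up to 0.18). Every same-numbered pair exceeded 0.1 only between the trans-zeatin groups of both genotypes; the main fits hold no block. With the replicate block, 1095 probe sets were called in wild type, 133 in the mutant, 5 in the interaction, 514 and 307 between genotypes under DMSO and trans-zeatin, and 1202 and 985 in the averages, and the block changed no count of members called in any of the 7 comparisons.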
